A study of Mus musculus with 2 samples.

Results

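The set described here is the secreted and membrane part of the Wnt pathway with its feedback genes and nuclear factors, 54 of the 33904 genes in the count matrices. It was chosen by symbol alone, as all genes named Wnt, Fzd, Dkk, Sfrp or Rspo followed by a digit, plus Wif1, Axin2, Lef1, Tcf7, Lgr5, Lgr6, Nkd1, Nkd2, Notum, Lrp5 and Lrp6. No measured value entered the rule. It gave 19 Wnt ligands and 10 Frizzled receptors, and it also took in 2 antisense genes, Fzd10os and Rspo4os. All 54 had UMIs (distinct transcript molecules), 36 had at least 1000 over both libraries, and 9 had fewer than 100 (Dkk4, Rspo4os, Wnt1, Wnt2b, Wnt3a, Wnt7a, Wnt8a, Wnt8b and Wnt9b).

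The data were single-cell RNA-seq of mouse dorsal skin, 1 Ctrl library and 1 AD library, taken on day 10. Female C57BL/6J mice aged 7 weeks had their back hair removed with depilatory cream 24 hours earlier than the first application, in both groups. Ctrl skin then received ethanol daily for 10 days, and AD skin received MC903 (calcipotriol), a vitamin D analogue that induces dermatitis resembling atopic dermatitis, at 4.5 nmol per application in ethanol. With 1 library per group and no replicate, no test between the groups was possible, no spread between animals is known, and every 95% interval below covers counting error only.

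Wnt proteins are secreted lipid-modified ligands that bind Frizzled receptors together with the co-receptors Lrp5 and Lrp6, which stabilises β-catenin and lets it act with the DNA-binding factors Lef1 and Tcf7. R-spondins, acting through Lgr receptors, raise the amount of Frizzled at the cell surface, whereas Sfrp proteins and Wif1 bind Wnt ligands, Dkk proteins bind the co-receptors, and Notum removes the lipid of the ligand. In skin the pathway is best known for hair follicle growth, where the dermal papilla and the epithelial matrix above it exchange Wnt signals during the growth phase and the pathway is restrained while the follicle rests.

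The Ctrl library kept 11399 cells with a median of 7813 UMIs, and the AD library kept 8179 cells with a median of 6330. The libraries shared 35 cell barcodes, of which 29 were kept in both. Cells were clustered jointly with the 54 genes left out, and the clusters were named from marker genes that hold none of them. The classes compared were dermal fibroblasts (dFBs, 4330 Ctrl and 4732 AD cells), follicle mesenchyme (1609 and 723), bulge and outer root sheath of the hair follicle (387 and 219), keratinocytes (1263 and 75) and vessels, meaning blood endothelium and mural cells (361 and 303). Follicle matrix and inner sheath (419 Ctrl cells) had 3 cells in AD and is described for Ctrl alone. Levels are given as CPM, meaning a gene's pooled UMI count in a class over the pooled count of all genes in that class, on the usual per-million scale. They are 3′ tag counts that were not divided by gene length, so each gene is compared across cells and not with other genes. Ratios are log2 of AD over Ctrl after adding 1 CPM, for genes that reached 5 CPM in Ctrl or AD, and "past 2-fold" means that ratio at or beyond 2-fold.

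Genes that mark the hair cycle differed between the libraries, and the labels give no hair cycle phase. A list of 24 genes of the growing follicle (matrix, inner sheath and shaft) summed to 182 CPM over all Ctrl cells and 22.5 CPM over all AD cells, and 11 of them had no UMI in AD against 3 in Ctrl. Shh, the growth signal of the matrix, had 672 UMIs in Ctrl and 0 in AD. Krt25, an inner sheath keratin, had 2674 and 0, and Krt35, a hair shaft keratin, had 898 and 0. The 4 genes of cell division in the list summed to 405 CPM in Ctrl and 37.7 CPM in AD. Genes of the papilla (13) summed to 928 and 487 CPM. Genes of the resting bulge and germ (9) summed to 1526 and 410 CPM, but Cd34 (463 and 125 CPM) and Postn (621 and 62.9 CPM) in that list are also fibroblast genes. Within the bulge and outer sheath class they summed to 3249 and 3664 CPM. For every ratio below, hair cycle phase, treatment and library cannot be told apart. Fewer cells of a type and less RNA per cell cannot be told apart either in sums over all cells. Epithelial cell numbers also differed (follicle matrix 419 and 3, keratinocytes 1263 and 75), and their part in these sums was not tested.

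**Figure D1:**
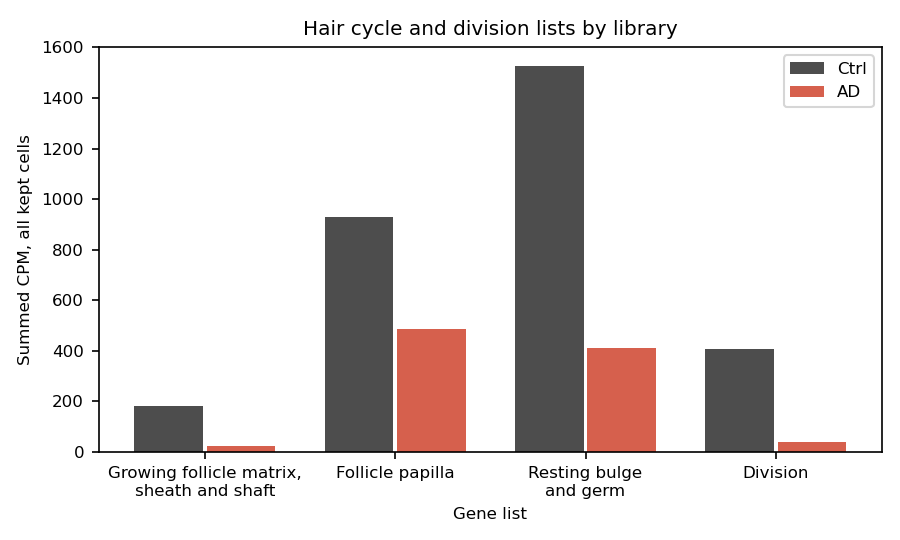
Summed CPM (y axis) of 4 gene lists over all kept cells of the Ctrl (grey) and AD (red) libraries. All 4 lists stood lower in AD, from 182 to 22.5 CPM for the growing follicle and from 405 to 37.7 CPM for division.

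The 54 genes together held 1520 CPM in Ctrl and 968 CPM in AD over all kept cells. Several of them came mostly from a single class. In Ctrl, follicle mesenchyme held 93.7% of the Rspo2 UMIs, 87.8% of the Rspo3 UMIs, 84.4% of the Wif1 UMIs and 96.2% of the Dkk1 UMIs. Fibroblasts held 91.2% of Sfrp4, 90.4% of Wnt2 and 85.7% of Sfrp2. Keratinocytes held 87.8% of Wnt3 and 82.2% of Wnt7b, 2 ligands of the epidermis. Others were spread more widely, such as the co-receptor Lrp6, of which fibroblasts held 39.4%, follicle mesenchyme 17.9% and keratinocytes 14.9%. In AD the fibroblast shares were similar for Sfrp4 (96.8%), Wnt2 (91.9%) and Sfrp2 (81.6%). Those of the follicle mesenchyme were 49.9% for Rspo3 and 25.3% for Wif1, for which fibroblasts held 66.5%. Among the AD fibroblast clusters, Wif1 was highest in cluster 25, described below, whose fibroblast name is uncertain. Wnt3 had 613 UMIs in Ctrl and 5 in AD.

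**Figure D2:**
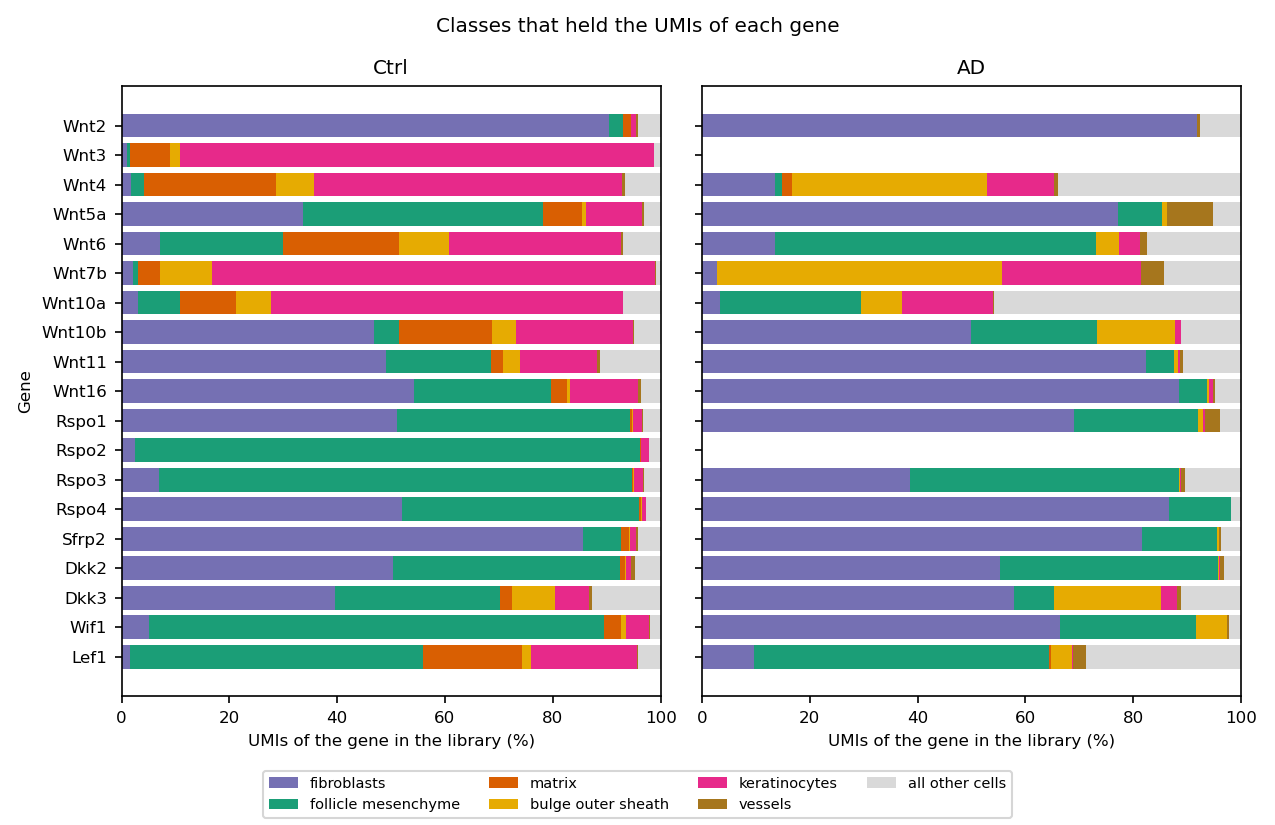
Percentage of the UMIs of each gene (x axis) that each class held, in Ctrl (left) and AD (right). Genes with fewer than 20 UMIs in a library (Wnt3 and Rspo2 in AD) have no bar. Fibroblasts held most Wnt2 and Sfrp2 UMIs in both libraries, and follicle mesenchyme held 84.4% of the Wif1 UMIs in Ctrl and 25.3% in AD.

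**Figure D3:**
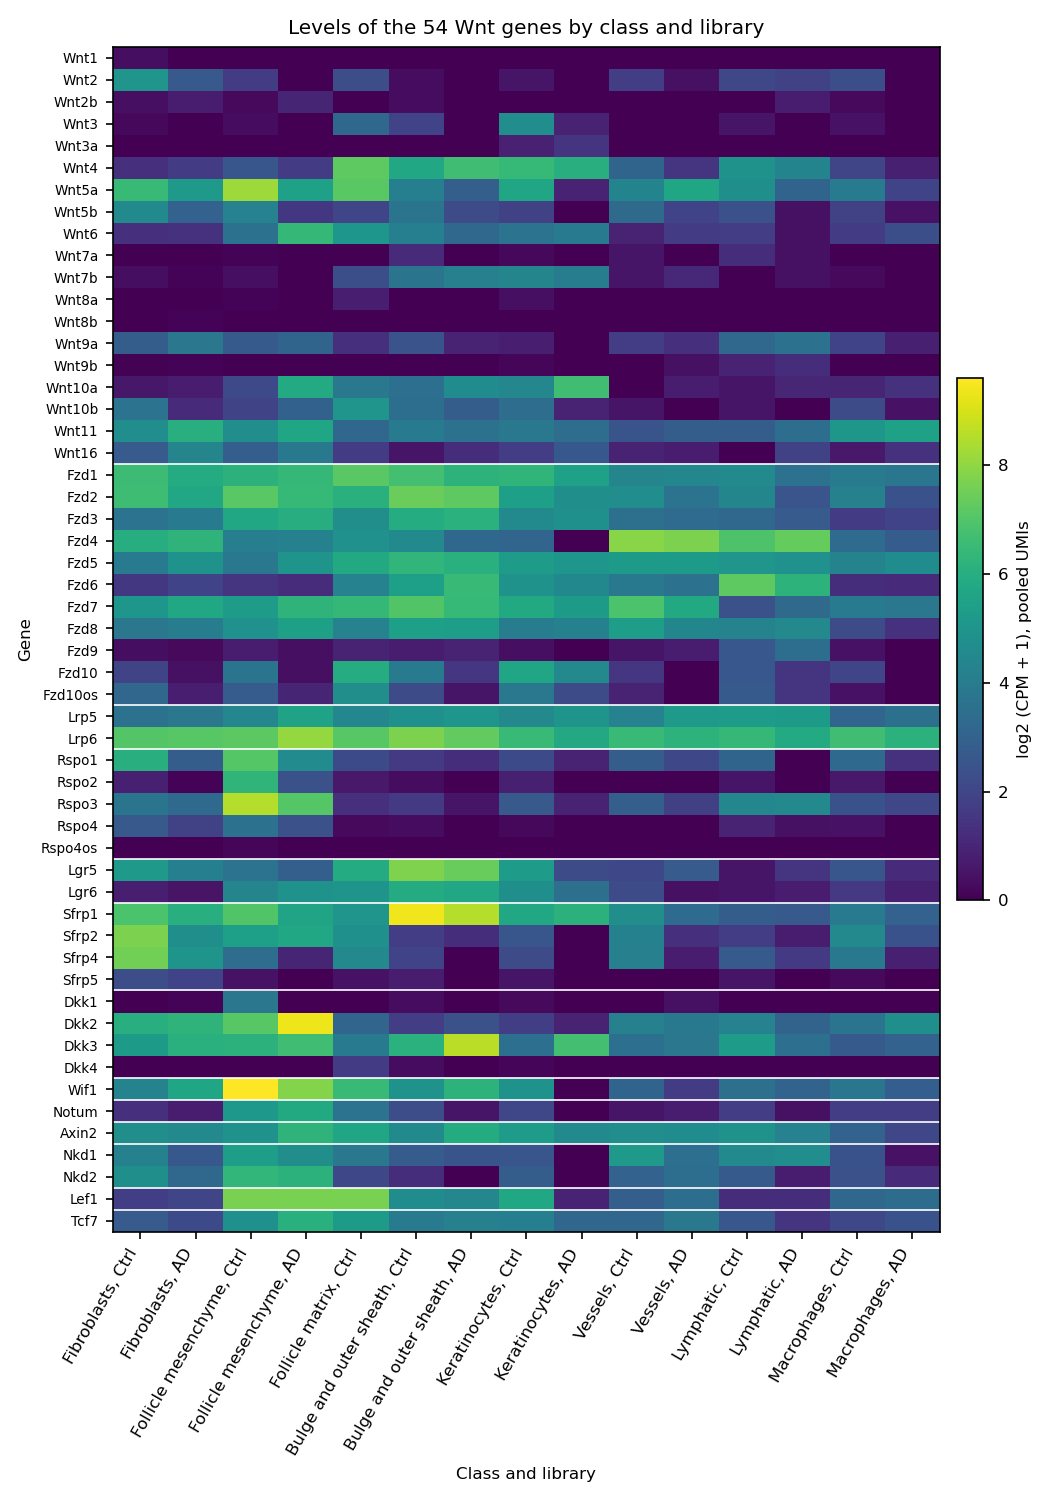
Levels of the 54 genes (rows, grouped by role) in each class and library (columns) as log2 (CPM + 1), the colour scale. The follicle columns hold the brightest cells for Wif1, Rspo3, Lef1 and Dkk2, the bulge columns for Sfrp1 and Lgr5, and the vessel columns for Fzd4.

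Follicle mesenchyme carried the highest levels of several genes, and its clusters differed by library. Cluster 7 held 736 Ctrl cells and passed 8 papilla markers, cluster 8 held 864 Ctrl cells with sheath markers, and cluster 32 held 711 AD cells. Class ratios therefore compared unlike mixtures, with papilla and sheath clusters in Ctrl and almost only cluster 32 in AD. Cluster 32 had the name from 3 markers and had a median of 3073 UMIs, against 6814 in cluster 7. Corin stood at 37.4 CPM there, above the 0 to 0.429 CPM of the 5 AD fibroblast clusters and below the 542 CPM of cluster 7, and Prlr stood at 631 CPM against 386 in cluster 7. Hhip stood at 71.5 CPM, against 0 to 28.6 CPM in the same 5 clusters. Trps1 (470 CPM) did not set it apart, since AD fibroblast cluster 25 held 723 CPM, and the papilla markers Edn3 (0.337 CPM) and Sox18 (1.01 CPM) were near 0. Sheath markers also stood above those 5 clusters, with Acta2 at 58.0 CPM (1.27 to 3.15) and Lrrc15 at 27.6 CPM (0 to 0.639). Itga8 stood at 126 CPM, above both cluster 7 (37.2 CPM) and cluster 8 (68.4 CPM). Col11a1 (41.5 CPM) and Abcc9 (0.674 CPM) did not set it apart. It is called papilla-like from the marker rule, and these values do not settle its kind of mesenchyme. When the 54 genes were put back among the clustering genes, 717 of its 720 cells took the fibroblast name.

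Among the R-spondins, agonists of the pathway, all 4 were past 2-fold lower in AD follicle mesenchyme, in which 22.6% of all genes compared were, and their Ctrl levels came from the papilla cluster. Rspo3 (chr10:29452416-29535867, GRCm38) stood at 1015 CPM (989 to 1042) in Ctrl cluster 7, at 18.4 CPM in the Ctrl sheath cluster 8 and at 125 CPM (112 to 138) in AD cluster 32. Cells with a Rspo3 UMI made up 86.1% of the cells of cluster 7 and 21.2% of those of cluster 32, or 54.5% and 9.60% once each cell was thinned to 1000 UMIs. In macrophages, which should lack the gene, 1.47% of Ctrl cells (median 5035 UMIs) and 1.87% of AD cells (median 6220) held a UMI. Over the class the log2 ratio of Rspo3 was -1.47 (-1.61 to -1.32). Rspo2 stood at 213 CPM in cluster 7 and 2.70 CPM in cluster 32, with a class ratio of -3.87 (-4.56 to -3.20). Rspo1 stood at 335 and 20.9 CPM, with a class ratio of -2.41 (-2.75 to -2.08). Rspo4 was low in clusters 7 and 32, at 31.4 and 3.37 CPM, with a class ratio of -1.22. That of Rspo4 became 0.48 with each cell assigned on its own to the class of its highest summed markers (cell by cell) and -0.81 at a pseudocount of 5 CPM, and that of Rspo3 became -0.78 with all deposited barcodes, each no longer past 2-fold lower.

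The ligands of the follicle mesenchyme differed in both directions. Wnt5a, which mostly signals without β-catenin, stood at 575 CPM in Ctrl cluster 7, 133 CPM in Ctrl cluster 8 and 43.8 CPM in AD cluster 32, a class ratio of -2.69 (-2.94 to -2.44). Its relative Wnt5b had a class ratio of -2.69 (-3.49 to -1.84), which was -0.89 with each library clustered alone. Wnt10a and Wnt6, ligands that act through β-catenin, were higher in AD. Wnt10a stood at 8.52 CPM in cluster 7 and 58.7 CPM in cluster 32, a class ratio of 3.75 (3.37 to 4.12), and Wnt6 at 16.9 and 83.3 CPM, a class ratio of 2.77 (2.50 to 3.04).

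Secreted inhibitors of the follicle mesenchyme were also split. Wif1 (chr10:121033960-121100650) stood at 1637 CPM (1603 to 1671) in Ctrl cluster 7, 299 CPM in Ctrl cluster 8 and 217 CPM (201 to 235) in AD cluster 32, a class ratio of -1.79 (-1.90 to -1.68) that was -0.74 cell by cell. Dkk2 (chr3:132085292-132180304) ran the other way, at 183 CPM (172 to 195) in cluster 7, 111 CPM in cluster 8 and 653 CPM (624 to 683) in cluster 32, a class ratio of 2.24 (2.15 to 2.33). Macrophages held Dkk2 at 11.9 and 26.5 CPM. Dkk1 was a gene of the Ctrl sheath, with 20.03 CPM in cluster 8 and 0.181 CPM in cluster 7. It had no UMI in AD follicle mesenchyme, so its level over the class (13 CPM in Ctrl) was at least 13.2-fold higher than the floor of 3 UMIs allows in AD. Sfrp1 stood at 323 CPM in cluster 7 and 45.8 CPM in cluster 32, with a class ratio of -1.38 (-1.62 to -1.14), or -0.81 with all barcodes. Sfrp2 stood at 85.2 and 53.6 CPM.

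Feedback genes and nuclear factors of the follicle mesenchyme were higher, lower or alike. Axin2, the feedback gene most often read as a sign of β-catenin activity, stood at 29.3 (Ctrl) and 74.2 CPM (AD) in follicle mesenchyme (ratio 1.31, 1.08 to 1.54). Tcf7 stood at 27.3 and 67.0 CPM (1.27, 1.02 to 1.51). Notum, the enzyme that removes the lipid of the ligand, stood at 33.7 and 55.2 CPM (0.69, 0.44 to 0.94). Nkd2, an inhibitor induced by the pathway, stood at 80.9 and 71.6 CPM (-0.17, -0.38 to 0.03) and Nkd1 at 39.1 and 25.6 CPM (-0.59, -0.93 to -0.26). Lef1 had close to equal levels over the class, 204 and 201 CPM. By cluster it stood at 539 CPM in Ctrl cluster 7, 21.4 CPM in the Ctrl sheath and 201 CPM in AD cluster 32. Against cluster 7 alone, Axin2 was still higher in cluster 32 but within 2-fold (46.6 and 73.5 CPM). Notum (93.9 and 53.9 CPM) and Nkd2 (143 and 68.4 CPM) were lower there. The receptors Fzd5 (13.3 and 30.2 CPM) and Lrp5 (20.6 and 45.0 CPM) were past 2-fold higher over the class, with ratios of 1.13 and 1.09, and Fzd10 (12.1 and 0.328 CPM, 1 UMI in AD) was lower, with a ratio of -3.30 (-3.70 to -2.19). The ratios of Tcf7 (0.78 and 0.97), Fzd5 (0.59 and 0.95) and Lrp5 (0.67 to 0.96) were within 2-fold under 2 or 3 of the alternatives each.

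Of 38 members compared in follicle mesenchyme, 8 were past 2-fold higher in AD and 12 past 2-fold lower, against 10.2% and 22.6% of all 11290 genes compared. The median ratio of the members was 0.24, and that of all genes was -0.18. With ratios centred on that median, 12 members were higher and 12 lower. The division list differed in the same class, at 393 (Ctrl) and 3.28 CPM (AD), and its part in these ratios was not tested.

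**Figure D4:**
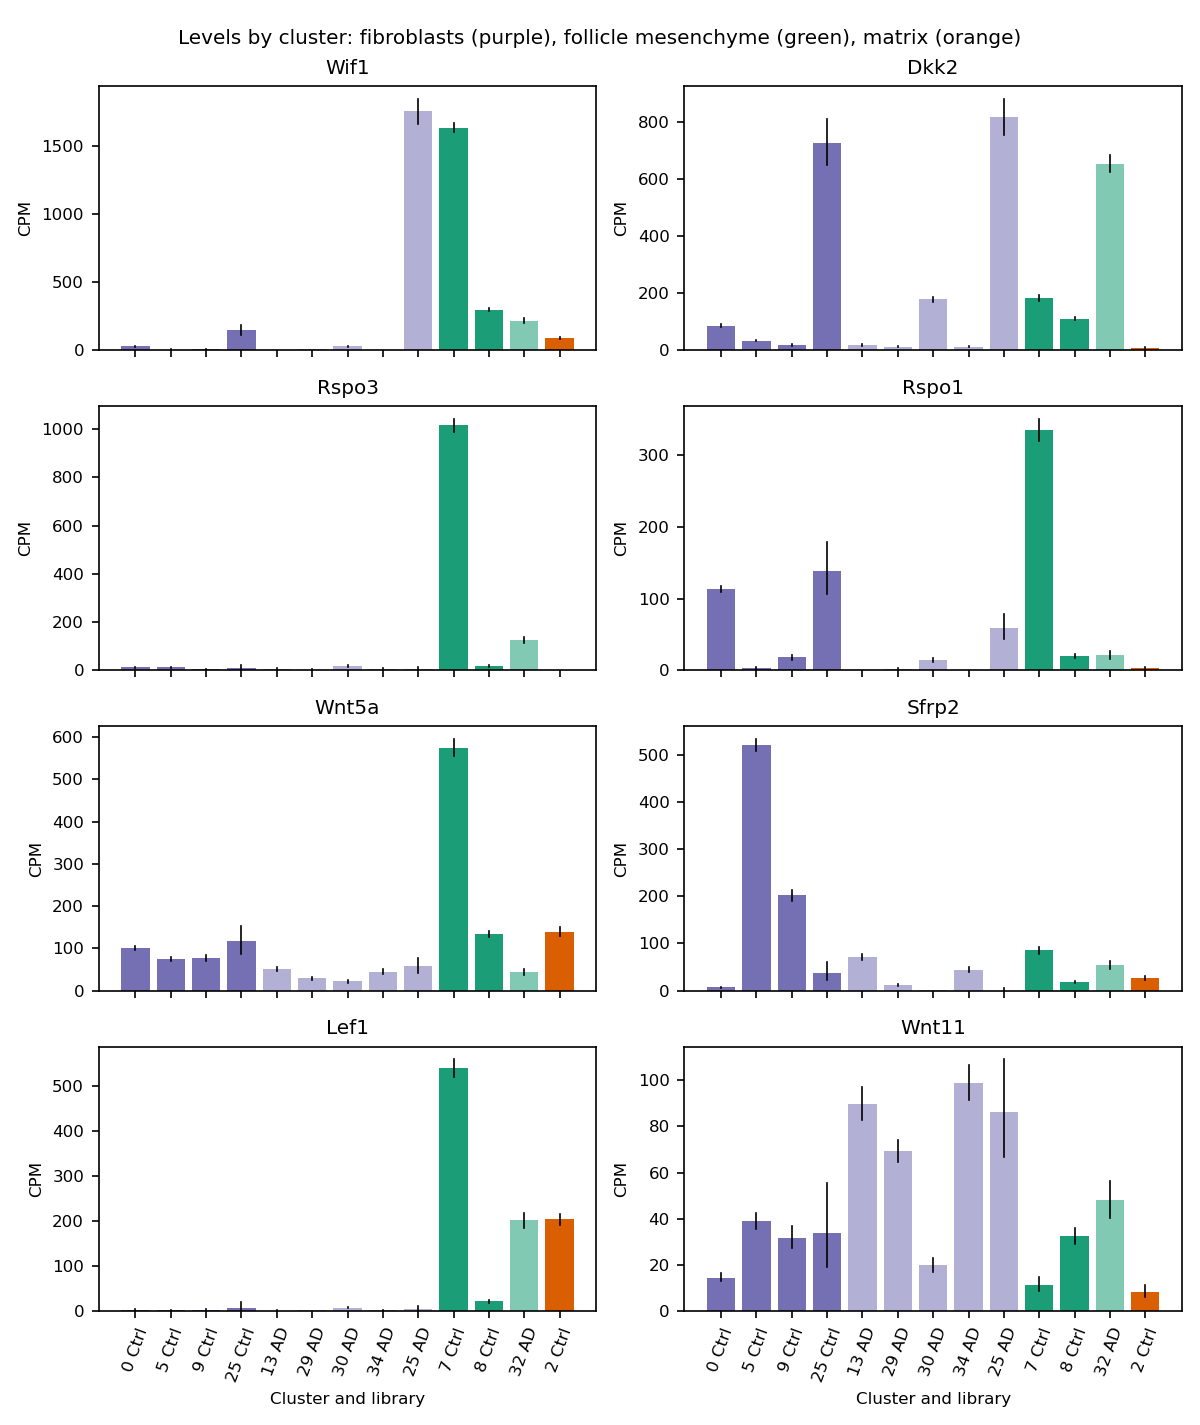
CPM (y axes, each from 0) of 8 genes in clusters of fibroblasts (purple), follicle mesenchyme (green) and follicle matrix (orange), with Ctrl cells in full colour and AD cells in light colour. Black lines are exact Poisson 95% intervals, and the tallest Rspo3, Rspo1, Wnt5a and Lef1 bars belong to Ctrl cluster 7, while the tallest Wif1 bar, 1756 CPM, belongs to AD cluster 25.

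The follicle matrix of Ctrl (cluster 2, led by Krt35, Krt28, Krt25, Dlx3 and Msx2) carried a set different from that of the follicle mesenchyme. Lef1 stood at 204 CPM (192 to 216), Wnt4 at 146 CPM and Wnt5a at 139 CPM. Lrp6 and Fzd1 stood at 136 and 142 CPM, Fzd7 at 82.6 CPM, Fzd10 at 60 CPM and Lgr5, the R-spondin receptor of follicle stem and germ cells, at 58.9 CPM. Wif1 was present at 88.9 CPM, but a UMI of it was found in 14.8% of the cells against 63.2% for Lef1. Wnt6 and Wnt10b stood at 31.5 and 31.1 CPM, and Axin2 at 49.1 CPM. These are levels of a class held by Ctrl alone and make no comparison with AD. Ctrl cluster 4, named keratinocyte, held many of the same genes at levels not far from these. Lef1 stood there at 126 CPM, Wnt4 at 120 CPM, Wnt5a at 99.0 CPM, Fzd1 at 157 CPM, Fzd10 at 55.2 CPM and Lgr5 at 87.2 CPM. Wif1 stood there at 52.5 CPM, with a UMI in 14.1% of the cells. The set is therefore not particular to the matrix.

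Sequence upstream of members whose level turned on library and cluster is shown for 4 genes, the inhibitors Wif1, Dkk2 and Sfrp2 and the ligand Wnt11. These are the 250 bases before the RefSeq start site, 5′ to 3′ on the strand of the gene, in GRCm38.p6. All 4 genes lie on the plus strand, with windows at chr10:121033754-121034003 (Wif1), chr3:132085042-132085291 (Dkk2), chr7:98834862-98835111 (Wnt11) and chr3:83766071-83766320 (Sfrp2). Capitals mark CTTTG or its reverse complement CAAAG, the core shared by Lef1 and Tcf7 motifs.
Wif1: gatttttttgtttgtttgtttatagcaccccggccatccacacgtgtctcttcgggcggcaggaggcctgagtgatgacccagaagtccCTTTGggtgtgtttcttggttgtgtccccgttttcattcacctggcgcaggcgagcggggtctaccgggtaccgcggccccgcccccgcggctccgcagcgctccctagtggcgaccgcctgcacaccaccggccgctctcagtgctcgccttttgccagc
Dkk2: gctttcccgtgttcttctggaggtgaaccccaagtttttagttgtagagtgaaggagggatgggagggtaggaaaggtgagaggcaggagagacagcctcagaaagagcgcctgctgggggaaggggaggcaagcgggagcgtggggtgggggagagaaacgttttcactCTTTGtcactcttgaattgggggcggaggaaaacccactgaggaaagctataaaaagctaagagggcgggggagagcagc
Wnt11: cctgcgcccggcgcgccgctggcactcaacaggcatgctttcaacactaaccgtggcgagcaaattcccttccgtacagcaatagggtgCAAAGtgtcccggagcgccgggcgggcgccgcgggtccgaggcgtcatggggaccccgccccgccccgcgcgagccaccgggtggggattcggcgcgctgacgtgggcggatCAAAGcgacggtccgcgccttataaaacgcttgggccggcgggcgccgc
Sfrp2: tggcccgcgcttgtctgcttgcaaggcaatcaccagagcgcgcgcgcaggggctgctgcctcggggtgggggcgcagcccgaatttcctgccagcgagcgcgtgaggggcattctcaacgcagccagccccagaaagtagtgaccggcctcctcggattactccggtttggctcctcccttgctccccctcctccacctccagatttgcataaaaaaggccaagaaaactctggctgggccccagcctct
Windows were matched for 34 of the 54 members. The core was found on either strand in 13 of them (38.2%), and in 48.8% of 27025 genes with a window. The longer motif CTTTGAT (reverse complement ATCAAAG), which overlaps the core, was found in 1 member, Wnt11, and in 3.26% of all windows. In Wnt11 it began 51 bases before the start site. A match is a run of letters and not a bound site.

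In dFBs the lowest ratios belonged to Rspo1 and the secreted inhibitors Sfrp2 and Sfrp4. Sfrp2 (chr3:83766321-83774316) stood at 208 (Ctrl) and 26.4 CPM (AD), a ratio of -2.93 (-3.03 to -2.84). Sfrp4 stood at 186 and 30.1 CPM (-2.59, -2.68 to -2.50). Rspo1 stood at 62.9 and 6.08 CPM (-3.17, -3.35 to -3.00). The ligands Wnt2 (31.1 and 5.39 CPM), Wnt10b (11.6 and 1.26 CPM), Wnt5b (23.3 and 7.01 CPM) and Wnt5a (88.1 and 35.3 CPM) were also past 2-fold lower. So were the feedback genes Nkd1 (17.5 and 5.22 CPM) and Nkd2 (26.1 and 8.57 CPM), the receptor Lgr5 (35.6 and 16.6 CPM) and the antisense gene Fzd10os (7.88 and 0.754 CPM). Fzd10os lies on the other strand beside Fzd10, which was itself under 5 CPM in dFBs. Lgr5 (-1.05) was within 2-fold under 5 alternatives (-0.91 to -0.36), and Nkd2 (-1.50) was -0.94 when the members took part in the clustering.

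Higher in AD dFBs were 3 ligands and Wif1. Wnt11 stood at 25.3 (Ctrl) and 66.1 CPM (AD; 1.35, 1.24 to 1.45), Wnt16 at 5.66 and 19.8 CPM (1.65, 1.45 to 1.84) and Wnt9a at 6.05 and 13.1 CPM (1.00, 0.80 to 1.21). Macrophages also held Wnt11, at 32.9 and 43.5 CPM, and 11.6% and 16.2% of them had a UMI, against 17.4% and 30.5% of dFBs. After thinning to 1000 UMIs the shares were 3.51% and 3.81% of macrophages, and 2.84% and 7.02% of dFBs. Wif1 stood at 18.8 and 49.7 CPM (1.36, 1.24 to 1.48), but this ratio rested on cluster 25. Without that cluster it was -0.59, and with follicle mesenchyme counted among the fibroblasts it was -1.88. Cell by cell, all 4 were within 2-fold, at 0.23 for Wnt11, 0.67 for Wnt16, 0.38 for Wnt9a and 0.052 for Wif1, and Wnt9a was within 2-fold under 5 further alternatives (0.71 to 0.99).

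Cluster 25 was the only fibroblast cluster with at least 50 cells in both libraries (76 Ctrl and 88 AD cells, led by Fmod, Coch and Aspn). In it Wif1 stood at 148 CPM (115 to 189) in Ctrl and 1756 CPM (1665 to 1851) in AD, a ratio of 3.56 (3.20 to 3.93). The share of its cells with a Wif1 UMI was 28.9% in Ctrl and 87.5% in AD, or 13.5% and 60.9% after thinning to 1000 UMIs. Among macrophages 3.40% and 3.12% held a Wif1 UMI, or 0.605% and 1.04% after thinning. Dkk2 was high in it in both libraries, at 727 and 816 CPM, and Rspo4 was found there at 184 and 104 CPM. Fzd1 (265 and 445 CPM) and Fzd2 (409 and 338 CPM) stood above their levels in every other fibroblast cluster. Nkd1 (81.0 and 83.5 CPM) and Axin2 (45.0 and 62.0 CPM) differed little between the libraries. Wnt11 was higher in AD here too (33.7 and 86.1 CPM), whereas Rspo1 (139 and 59.5 CPM) and Wnt5a (117 and 58.2 CPM) were lower.

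Each remaining dFB cluster had at most 16 cells of the other library, so library and cluster identity cannot be told apart in them. The Ctrl clusters 5 and 9 held Sfrp2 at 520 and 202 CPM and Sfrp4 at 401 and 330 CPM, while Ctrl cluster 0 held them at 7.41 and 6.90 CPM. In the 5 AD clusters Sfrp2 ran from 0 to 70.7 CPM. Its ranges therefore overlapped between the libraries. Wnt2 was highest in Ctrl cluster 5 (79.8 CPM) and Rspo1 in Ctrl clusters 0 and 25 (114 and 139 CPM). Wnt5a ran from 74.3 to 117 CPM in its 4 Ctrl clusters and from 21.8 to 58.2 CPM in its 5 AD clusters. Wnt11 ran from 14.5 to 38.8 CPM in the 4 Ctrl clusters. It stood at 69.2 to 98.6 CPM in AD clusters 13, 29, 34 and 25 and at 19.7 CPM in AD cluster 30. The share of all genes with cluster ranges this far apart is not given, so neither gap can be read as particular to its gene.

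The Frizzled and Lrp genes that reached 5 CPM in dFBs all stayed within 2-fold, from Fzd2 (97.1 and 51.5 CPM, -0.90) to Fzd5 (15.0 and 28.6 CPM, 0.89), with Lrp6 at 129 and 135 CPM. Axin2 stood at 26.0 and 22.1 CPM (-0.23, -0.36 to -0.10). Lef1 stood at 2.40 and 2.99 CPM, below its level in macrophages (8.13 and 9.49 CPM). Of 31 members compared in dFBs, 4 were past 2-fold higher and 11 past 2-fold lower, against 8.05% and 11.9% of 10526 genes. The median ratio was -0.59 for the members and -0.03 for all genes.

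Bulge and outer sheath cells formed a single cluster that both libraries filled (cluster 3, led by Krt15 and Sox9). The marker score alone gave it the keratinocyte name, and the keratinocyte marker Krt5 was also among its leading genes. Of 8 bulge markers, 5 stood higher than in the remaining cells in Ctrl and 6 in AD. How far the cluster also held epidermal keratinocytes was not tested. Lgr5 marked the cluster in both libraries, at 211 (Ctrl) and 165 CPM (AD; -0.35, -0.53 to -0.17), and Lgr6 stood at 58.1 and 53.1 CPM. Sfrp1 stood at 663 and 371 CPM (-0.84, -0.95 to -0.72), within 2-fold. Dkk3, Axin2 and Wif1 were past 2-fold higher in AD. Dkk3, a divergent member of the Dkk family, stood at 68.4 and 382 CPM (2.46, 2.27 to 2.66), Axin2 at 23.4 and 59.1 CPM (1.30, 0.92 to 1.68) and Wif1 at 29.3 and 71.7 CPM (1.26, 0.92 to 1.61). The receptor Fzd6 stood at 41.3 and 89.9 CPM (1.10, 0.81 to 1.40) and the ligand Wnt10a at 10.4 and 24.2 CPM (1.15, 0.58 to 1.72). The ratio of Wif1 was 0.91 with each library clustered alone and that of Wnt10a 0.86 to 0.93 under 3 alternatives, both then within 2-fold.

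Lower in AD bulge cells were Fzd10 (14.4 and 1.86 CPM, -2.43, -3.41 to -1.34), Fzd4 (22.2 and 8.38 CPM), Wnt5a (16.5 and 6.52 CPM) and Wnt5b (11.8 and 3.73 CPM). Wnt5a was also found in macrophages, at 15.1 and 2.77 CPM, near its bulge level in Ctrl. Its bulge ratio of -1.22 was within 2-fold under 6 alternatives (-0.90 to -0.65), that of Fzd4 (-1.31) was -0.57 cell by cell and that of Wnt5b (-1.44) was -0.95 at a pseudocount of 5 CPM. Of 28 members compared, 5 were past 2-fold higher and 4 lower, against 8.63% and 15.7% of 11001 genes, and the medians were -0.22 for the members and -0.18 for all genes. Wnt4 (52.4 and 98.7 CPM, 0.90) and Lef1 (24.1 and 21.0 CPM) stayed within 2-fold. The division list summed to 246 CPM in Ctrl and 8.38 CPM in AD in these cells, beside the higher Axin2.

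Keratinocytes were few in AD and nearly all came from a single cluster, so class ratios compared unlike mixtures of clusters. The Ctrl cells came from cluster 11 (650, differentiating), cluster 4 (517, led by division genes such as Top2a and Mki67) and cluster 26 (96, cornified), whereas 74 of the 75 AD cells came from cluster 11. Cluster 4 resembled the follicle matrix in the member levels given above. The growing follicle list summed to 427 CPM over all Ctrl keratinocytes, against 256 CPM in Ctrl bulge cells and 1268 CPM in Ctrl matrix. Whether the cells of cluster 4 were epidermal or follicular was not tested. Lef1 stood at 53.3 CPM in Ctrl and 0.880 CPM (1 UMI) in AD over the class, a ratio of -4.85 (-5.73 to -3.20), but at 126 CPM in cluster 4 and 3.14 CPM in Ctrl cluster 11. Lgr5 (38.3 and 3.52 CPM) and Wnt5a (48.7 and 0.880 CPM) likewise had their Ctrl levels in cluster 4, at 87.2 and 99.0 CPM. Wif1 had no AD UMI, so its 28.7 CPM in Ctrl was at least 10.9-fold above the floor of 3 UMIs. It too was high in Ctrl cluster 4, at 52.5 CPM (463 UMIs), a cluster without AD cells, and stood at 12.1 CPM in Ctrl cluster 26. The class ratio of Lef1 was within 2-fold under 4 alternatives (-0.50 with each library clustered alone) and that of Lgr5 (-3.12) under 6 (-0.79 to 0.60). So were that of Lgr6 (-1.26) under 5, at -0.94 to -0.091, and that of Fzd10 (-1.16) under 4. The ratio of Fzd10os (-1.67) was within 2-fold under 4 and became 1.02 by the mean over cells.

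Within cluster 11, which both libraries filled, Wnt3, an epidermal ligand that acts through β-catenin, stood at 31.0 CPM in Ctrl and 0.922 CPM (1 UMI) in AD, a ratio of -4.06 (-4.97 to -2.37). Wnt4 stood at 72.7 and 64.6 CPM (-0.17, -0.54 to 0.18). Wnt10a stood at 27.1 and 104 CPM (1.90, 1.58 to 2.22), Dkk3 at 9.31 and 110 CPM (3.42, 3.04 to 3.81) and Sfrp1 at 29.1 and 74.7 CPM (1.33, 0.97 to 1.69). Axin2 stood at 37.9 and 24.0 CPM (-0.64, -1.24 to -0.08). Wnt10a and Dkk3 were higher in AD in the sebaceous cells as well, at 6.93 and 120 CPM and at 2.52 and 44.0 CPM. Over the whole keratinocyte class 31 members were compared, of which 2 were past 2-fold higher and 12 lower, against 6.21% and 17.7% of 10667 genes. The medians were -0.68 for the members and -0.22 for all genes. In cluster 11 alone 4 of 29 members compared were higher and 8 lower. The share of all genes past 2-fold in that cluster is not given, so these counts are not read as a trait of the members.

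Vessels carried few ligands and a distinct receptor set. Fzd4, the Frizzled known for retinal and brain vessels, stood at 235 CPM in Ctrl endothelium and 179 CPM in AD endothelium (-0.39, -0.68 to -0.11), and at 232 and 233 CPM in mural cells (0.00, -0.22 to 0.23). Fzd7 was mural, at 169 and 90.0 CPM (-0.90, -1.22 to -0.60), and stood at 25.1 and 14.1 CPM in endothelium. Lymphatic endothelium held Fzd4 (121 and 160 CPM) and also Fzd6, at 148 (Ctrl) and 71.7 CPM (AD; -1.04, -1.29 to -0.78).

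Wnt5a was the only member past 2-fold higher in AD vessels, with a ratio of 1.35 that was 0.61 cell by cell and 0.78 by the mean over cells, and mural cells held most of it. It stood at 20.1 CPM (27 UMIs) in Ctrl and 86.0 CPM (131 UMIs) in AD mural cells, a ratio of 2.05 (1.46 to 2.67), and at 17.6 and 7.83 CPM in endothelium. In the other 4 classes compared it was past 2-fold lower. Wnt5a was also past 2-fold lower in AD lymphatic endothelium, macrophages, T cells and sebaceous cells, and the part of free RNA in its low levels was not tested. Of 27 members compared in mural cells, 5 were past 2-fold higher and 7 lower, against 6.82% and 12.9% of all genes, and of 25 in endothelium none was higher and 11, Wnt5a among them, were lower, against 5.84% and 16.8%. Mural Tcf7 stood at 3.71 and 21.7 CPM (2.27, 1.09 to 3.47), Lrp5 at 11.1 and 27.6 CPM (1.24, 0.41 to 2.11), Lef1 at 2.23 and 9.85 CPM (3 and 15 UMIs, 1.75, 0.28 to 3.07) and Lgr5 at 3.71 and 9.20 CPM (1.11, -0.21 to 2.43). The interval of Lgr5 included 0. Mural Nkd1 was lower, at 49.0 and 19.0 CPM (-1.32, -1.97 to -0.69). Sfrp2 (17.7 and 1.43 CPM) and Sfrp4 (17.3 and 0.714 CPM) were lower in AD vessels, but macrophages held them at 21.8 and 4.35 CPM and at 13.9 and 0.791 CPM, levels of similar size, and the part of free RNA was not tested. The ratio of Sfrp2 was -0.86 cell by cell, and those of Wif1, Sfrp1, Fzd2 and Fzd7 were also within 2-fold under 1 or more alternatives. Of 28 members compared in vessels, 1 was past 2-fold higher and 10 lower, against 4.59% and 11.0% of 11057 genes. The medians were -0.28 for the members and -0.12 for all genes, and after centring on the latter 2 were higher and 7 lower.

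**Figure D5:**
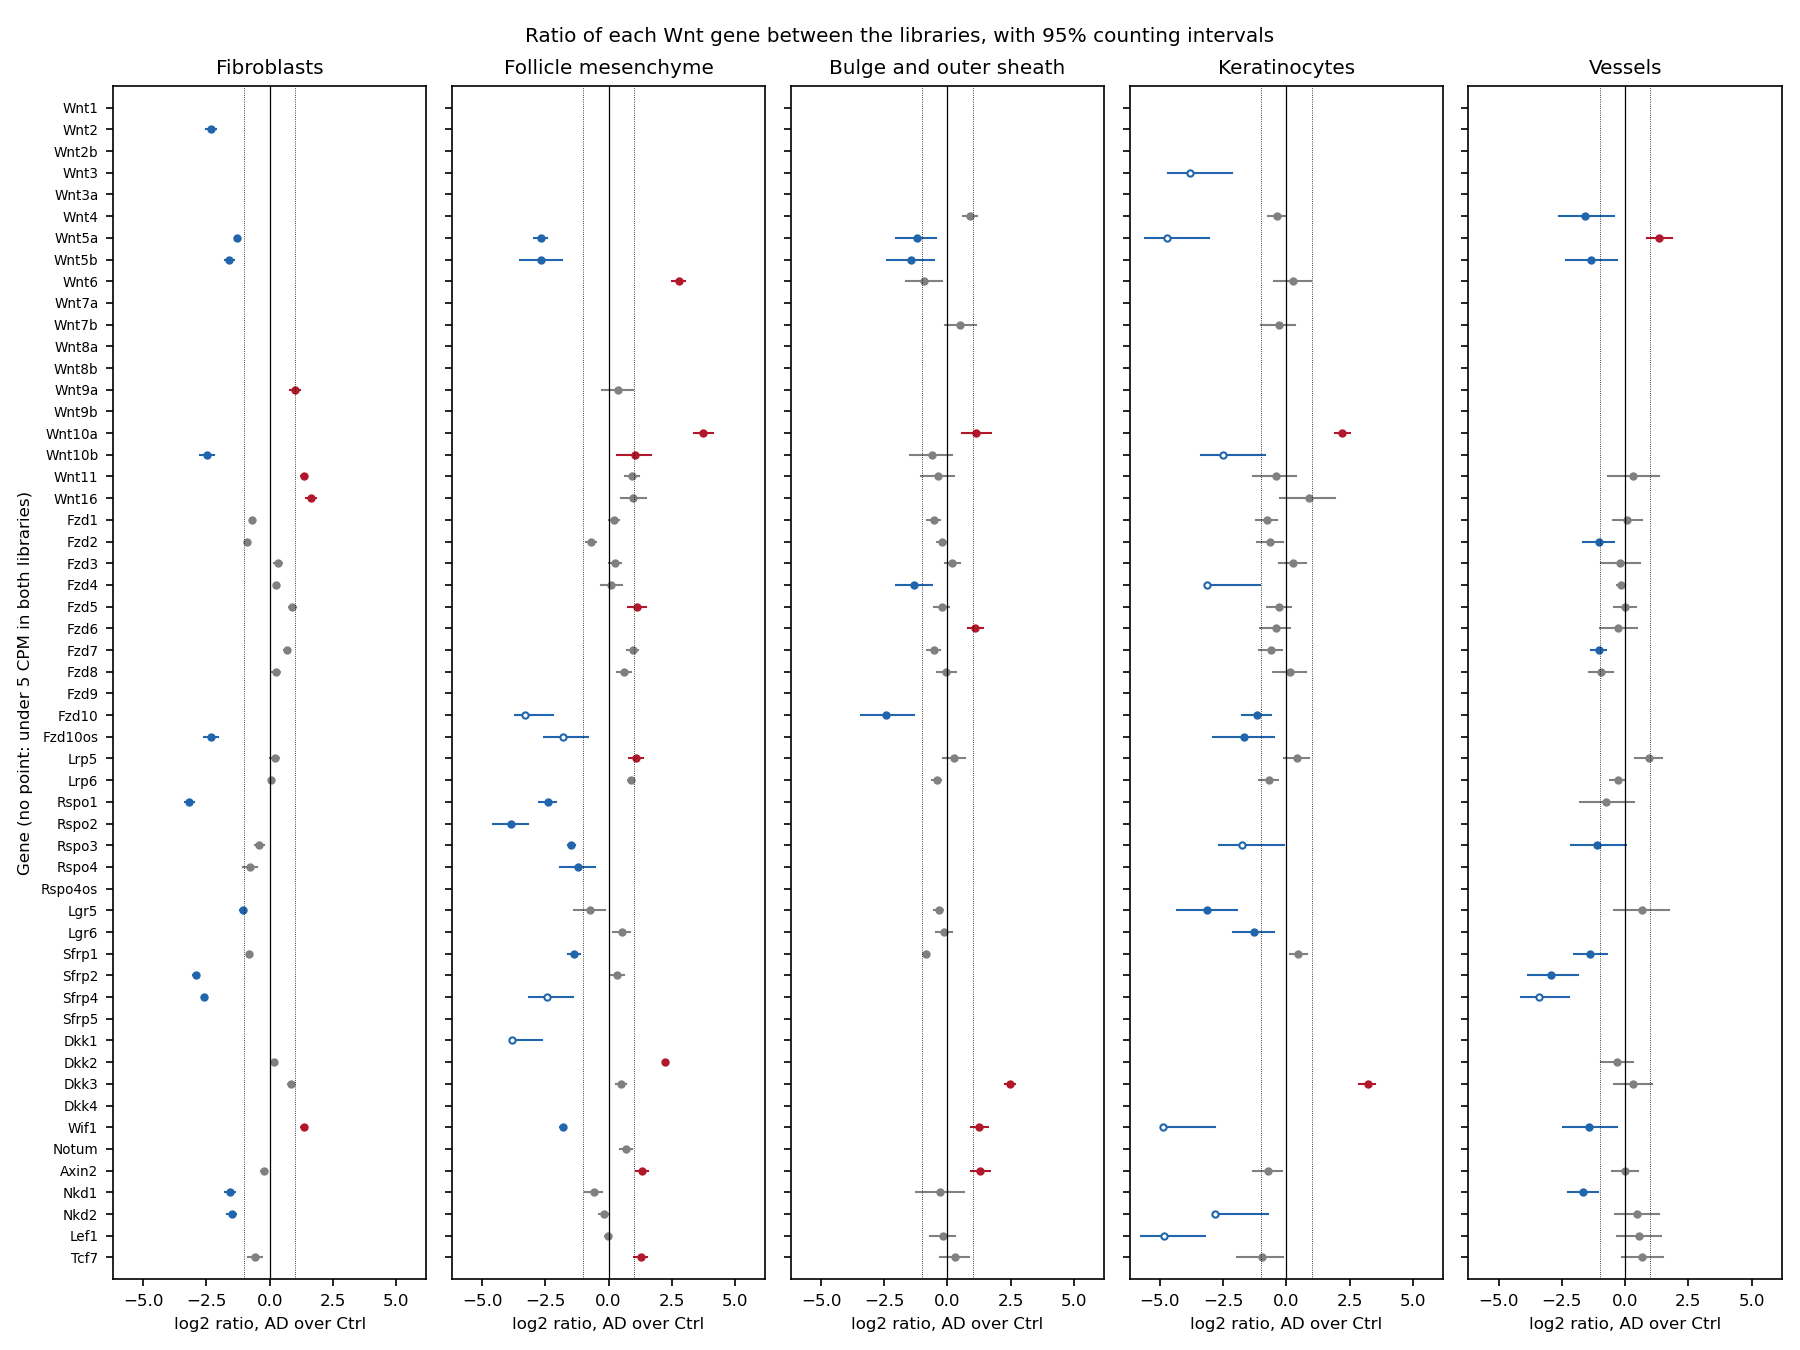
Log2 ratio of AD over Ctrl (x axes) for each member with at least 5 CPM in either library, in 5 classes. Lines are 95% counting intervals, dotted lines mark 2-fold, red and blue points are past 2-fold higher and lower in AD, and open points have 3 or fewer UMIs in a library. Wnt5a is blue in 4 classes and red in vessels, and Dkk3 is red in bulge cells and keratinocytes.

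Across classes, Axin2 was past 2-fold higher in AD follicle mesenchyme and bulge cells. The Ctrl follicle mesenchyme pooled clusters 7 (46.6 CPM) and 8 (19.8 CPM). Against cluster 7 alone, AD cluster 32 (73.5 CPM) was within 2-fold. Axin2 was also within 2-fold in dFBs, in keratinocytes (38.1 and 22.9 CPM) and in vessels (24.7 and 24.6 CPM). Wif1 was lower in AD follicle mesenchyme, in AD keratinocytes and in AD vessels (7.47 and 2.14 CPM; -1.43, -2.46 to -0.30), and higher in AD bulge cells and in fibroblast cluster 25, without which it was -0.59 in dFBs. In keratinocytes much of its Ctrl level came from cluster 4 (52.5 CPM), which had no AD cells. Wnt10a was past 2-fold higher in AD in follicle mesenchyme, bulge cells and keratinocytes.

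A second list of 50 pathway genes, covering ligand export, intracellular signalling, other receptors, planar polarity and other targets, had fewer members past 2-fold higher than lower in each class. The same held for all genes compared, by the percentages given for each class above. In dFBs 2 of 42 compared were higher and 8 lower, in follicle mesenchyme 1 and 7 of 45, in bulge cells 2 and 6 of 47, in keratinocytes 2 and 15 of 46 and in vessels 2 and 7 of 41. Myc, a target of the pathway and of many other signals, was higher in AD in all 5 classes, at 127 (Ctrl) and 703 CPM (AD) in dFBs (2.46, 2.42 to 2.51) and at 32 and 224 CPM in follicle mesenchyme (2.77, 2.61 to 2.94). Ccnd1, a target tied to division, was lower in AD in follicle mesenchyme (161 and 3.61 CPM, -5.14, -5.86 to -4.44), bulge cells (555 and 19.1 CPM) and dFBs (71.5 and 10.5 CPM). Apcdd1, a membrane inhibitor of the pathway, stood at 206 and 59.5 CPM in dFBs (-1.77, -1.84 to -1.70), and Sostdc1, a secreted inhibitor, at 193 and 14.8 CPM in follicle mesenchyme (-3.62, -4.05 to -3.22). Tnfrsf19, a Wnt-responsive receptor, was lower in AD dFBs (16.1 and 1.03 CPM), keratinocytes (76.5 and 2.64 CPM) and bulge cells (38.5 and 2.33 CPM). In keratinocytes Tle1, a co-repressor, stood at 26.8 and 80.1 CPM (1.54, 1.21 to 1.86).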

How the data were processed

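Per the labels, dorsal skin was digested with collagenase D and DNase1, dead cells were removed and 10x 3′ v3.1 libraries were made. The authors deposited raw counts, the UMIs per gene and barcode from Cell Ranger on mm10 (3.1.0 in the submitters' processing notes, which also name Seurat 5.0, and 5.0.0 in the matrix header), without normalization. The number of mice per library is not given in the sources used here. Kept were cells of 200 to 6000 genes with 10% or fewer mitochondrial UMIs, giving 105195951 UMIs in Ctrl and 61645227 in AD.

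Both libraries were clustered jointly with scanpy 1.11.5 and leidenalg 0.10.2 (2000 variable genes with the 54 members left out, 30 components, 20 neighbours, resolution 1, no batch correction). A cluster took a name from at least 3 markers, each found in 10% of its cells and standing 2-fold above the lower quartile (25%) of clusters once 10 CPM was added. Where the 10 leading genes held more markers of another eligible list, that list gave the name. This step, which named the bulge cluster, and a smooth muscle list, which left a cluster of 68 cells unnamed, were added after the clusters had been seen. Rebuilt names can differ from the cell names of the study. Scrublet called 3.47% of Ctrl and 0% of AD cells, so its threshold did not work in AD and no doublets were removed.

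CPM have exact Poisson 95% intervals, and intervals of ratios come from the exact split of UMIs between the libraries. A count of 0 was given a floor of 3 UMIs over the class. Named were members with at least 10 CPM, 20 UMIs and a change past 2-fold (up to 10 higher and 10 lower per class), Axin2, Lef1, Tcf7, Nkd1, Nkd2, Notum, Lgr5 and Wif1, the 3 highest and 3 lowest other pathway genes, and members with at least 50 CPM in a class or cluster of 1 library. Other values were chosen after they had been seen. In counts simulated for the fibroblast comparison (10051 genes, 200 changed), 200 changes had the right direction, 175 lay within 0.25 log2 and 0 unchanged genes passed 2-fold. Both simulated libraries were drawn from the Ctrl fibroblast profile with counting error alone. The simulation therefore checks the calculation and gives no rate of false calls, since cells, clusters and animals did not vary in it. The members and lists were chosen with earlier results of these data known. Coordinates are from GENCODE M21 (GRCm38), which held all 54 members. Alternatives covered the cell filter, doublet scores, clustering, class rules, averaging, centring, pseudocount and minimum level.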

Additional observations from a re-analysis of the deposited data

Results flagged for a closer look

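Wif1 and Wnt5a moved past 2-fold in opposite directions in 2 classes, each beyond its own counting interval, and with 1 library per group the difference was not tested. The log2 ratio of Wif1 was 1.36 in dFBs and -1.79 in follicle mesenchyme, 3.14 apart, and the dFB value rested on cluster 25. AD cells of that cluster held some follicle mesenchyme markers, Edn3 at 68.3 CPM, Trps1 at 723 CPM and Col11a1 at 332 CPM. Most others were absent or low, with no UMI of Corin, Hhip, Sox18, Lrrc15 or Abcc9 and 1.27 CPM each of Prlr and Acta2. These values leave its fibroblast name uncertain. With follicle mesenchyme counted among the fibroblasts the dFB value was -1.88, and with classes set cell by cell the values were 0.052 and -0.74. The log2 ratio of Wnt5a was 1.35 in vessels and -2.69 in follicle mesenchyme, 4.04 apart. The vessel value was 0.61 cell by cell and 0.78 by the mean over cells.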

How the results depend on the processing

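No paired analysis was possible because each group has 1 library, and no library could be left out for the same reason. Over 81 ratios of named members there were 1163 values under alternatives. Of these, 7 changed sign where the main ratio was past 2-fold. Changes of sign in ratios within 2-fold were not counted, such as Lef1 in dFBs (-1.66 to 2.49). The alternatives of minimum CPM leave every ratio as it was. Of 59 member ratios past 2-fold among the 81, 29 were past 2-fold in the same direction under every alternative that gave a value. The other 30 were not under at least 1, most often cell by cell (17) and at a pseudocount of 5 CPM (10). In dFBs Wif1 became -1.88 with follicle mesenchyme counted in and -0.59 without cluster 25. With classes set cell by cell, Lgr5 in keratinocytes became 0.60, Sfrp1 and Fzd2 in vessels 0.17 and 0.044, and Rspo4 in follicle mesenchyme 0.48. With the mean over cells, Fzd10os in keratinocytes became 1.02.

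Counts of members past 2-fold moved by over 1.5 times as follows. Members higher in AD dFBs (4) became 1 cell by cell and 2 at a minimum of 20 CPM. Members higher in AD keratinocytes (2) became 5 with all barcodes, with the stricter filter, at resolution 0.5 and cell by cell, 6 with each library clustered alone and without the highest doublet scores, 7 by the mean over cells and 4 in cluster 11 alone, and those lower (12) became 7 at a minimum of 20 CPM and without the highest doublet scores. Members higher in AD vessels (1) became 3 cell by cell, 2 after centring and 4 without the highest doublet scores, and those lower (10) became 5 at a pseudocount of 5, 4 at 20 CPM and 6 without the highest doublet scores. Members higher in AD follicle mesenchyme (8) became 5 with each library alone, by the mean over cells and at a pseudocount of 5, and those lower (12) became 6 at 20 CPM. Members lower in AD bulge cells (4) became 7 with the stricter filter, 10 cell by cell, 2 at a pseudocount of 5, 12 with no minimum and 1 at 20 CPM. The cause of these moves was not tested, apart from the minimum and the pseudocount, which set how many members are tested or how low levels count.

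With the members among the clustering genes, AD follicle mesenchyme held 14 cells, so no ratio was made. Scrublet's own calls were not used, and leaving out the cells with the highest doublet scores, the fit without cluster 25 and cluster 11 alone were chosen after seeing the data. The stricter filter asked for 500 genes and 1000 UMIs. Counting depth limits values under about 5 CPM in AD keratinocytes, where 1 UMI is 0.880 CPM.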
